A study of Mus musculus with 4 samples.

Results

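Cholesterol synthesis genes and the cholesterol exporter gene Abca1 were followed over 4 Affymetrix arrays of mouse embryonic stem cells. The 8 members are Hmgcs1, Idi1, Fdps, Fdft1, Sqle, Msmo1, Dhcr7 and Abca1, chosen by name from a list. They were chosen with earlier results of these data known, so counts of members beside all genes are descriptions and not tests. Every probe set that the platform annotation assigns to only 1 of these symbols was taken. This gave 12 of 12422 probe sets, array controls left out, for 8 of the 8251 genes measured. All cells were E14tg2a, a mouse embryonic stem cell line kept without feeder cells. Control cells (titled Control) and cells carrying constitutively active Akt, a growth-signalling kinase (titled Akt12, here Akt cells), were each cultured in 3000 U/ml LIF (leukemia inhibitory factor) or for 4 days without it. Each of the 4 groups holds 1 array, with no replicate culture named. The sources used here do not say whether Akt12 is a single clone, what promoter drives the kinase or whether control cells carry a vector. No probe set checks the Akt label, because the form and species expressed are not named.

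Cells make cholesterol from acetyl-CoA through mevalonate, isoprenoid diphosphates, squalene and lanosterol. The genes of this route are activated together by the SREBP transcription factors, which are released for processing when membrane sterol is low. Abca1 lies on the opposite side of the balance: it exports cholesterol from the cell, and the oxysterol-sensing LXR receptors activate it. LIF holds mouse embryonic stem cells in the undifferentiated state, and Akt signalling is known to promote SREBP activity in many cell types.

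RefSeq promoter windows (assembly GRCm38.p6, 250 bases before to 50 bases after an annotated start) were at hand for 5 of the 8 members, in 7 windows, of which Dhcr7 had 3. The windows printed are those of the 3 members that were at least 2-fold higher in Akt cells without LIF, and that of Abca1, which was lower there. For Dhcr7 the window with CCAAT boxes is shown, and another of its windows held an E-box. Capitals mark matches to the sterol regulatory element TCACNCCAC, the E-box CACGTG and the CCAAT box (CCAAT, or ATTGG on the other strand). Sequences run 5′ to 3′ on the strand of the gene.
Hmgcs1 (chr13:119690101-119690400, + strand): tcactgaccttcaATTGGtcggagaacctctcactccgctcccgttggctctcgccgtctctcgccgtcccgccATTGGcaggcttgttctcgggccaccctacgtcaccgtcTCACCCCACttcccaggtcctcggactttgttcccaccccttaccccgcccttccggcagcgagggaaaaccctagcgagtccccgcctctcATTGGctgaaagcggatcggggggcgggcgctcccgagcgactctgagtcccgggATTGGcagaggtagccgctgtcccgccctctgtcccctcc
Msmo1 (chr8:64733529-64733828, - strand): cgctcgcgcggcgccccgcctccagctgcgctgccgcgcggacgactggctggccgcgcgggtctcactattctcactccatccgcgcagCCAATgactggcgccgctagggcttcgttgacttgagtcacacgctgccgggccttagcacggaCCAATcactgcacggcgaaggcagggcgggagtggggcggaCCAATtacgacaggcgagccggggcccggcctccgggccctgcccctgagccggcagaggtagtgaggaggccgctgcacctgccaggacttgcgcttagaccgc
Dhcr7 (chr7:143829964-143830263, + strand): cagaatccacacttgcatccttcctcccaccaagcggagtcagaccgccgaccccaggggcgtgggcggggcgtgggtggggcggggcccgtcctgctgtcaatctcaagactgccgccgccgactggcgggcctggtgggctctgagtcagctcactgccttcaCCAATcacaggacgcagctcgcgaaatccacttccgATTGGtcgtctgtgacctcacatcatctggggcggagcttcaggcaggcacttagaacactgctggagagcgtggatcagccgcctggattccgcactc
Abca1 (chr4:53159846-53160145, - strand): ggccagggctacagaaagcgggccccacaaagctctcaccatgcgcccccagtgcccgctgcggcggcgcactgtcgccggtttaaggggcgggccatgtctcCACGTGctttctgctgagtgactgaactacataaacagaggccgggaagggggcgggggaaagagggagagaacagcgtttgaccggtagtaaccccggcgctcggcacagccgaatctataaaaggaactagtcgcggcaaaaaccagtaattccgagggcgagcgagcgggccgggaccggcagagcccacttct

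The Hmgcs1 window held the 1 sterol regulatory element match of the 7 windows, at positions -137 to -129 with the annotated start as 0, beside 4 CCAAT boxes. Both strands were searched, and 1.24% of 32851 RefSeq windows of 300 bases held that element. CCAAT boxes numbered 3 for Msmo1, 2 for Idi1 and 2 in the printed Dhcr7 window, which was picked for holding them. The other Dhcr7 windows held no CCAAT box. Of all windows, 37.4% held at least 1. The Abca1 window had no CCAAT box but had an E-box, which was present in 7.15% of windows, at -147 to -142. The GC box GGGCGG, found in 35.7% of windows, was in 6 of the 7, and overlapped none of the other motifs searched in the printed windows. These matches are letters in a window and were not tested as binding sites.

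Values below are quantile normalized intensities, 1 per probe set, with a floor of 15.8, the 40th percentile over the 4 arrays. A value at the floor gives only a bound, and differences are on the log2 scale. Of 10 markers of undifferentiated stem cells, 8 or 9 were above the floor on each array. Their summed intensity was 10399 and 4054 in control cells with and without LIF, and 11822 and 7598 in Akt cells. Esrrb, a marker of that list, was at the floor on all 4 arrays. The actin 3' to 5' signal ratio, which rises with RNA degradation, ranged from 1.66 in control cells without LIF to 3.04 in Akt cells with LIF. The Gapdh ratio ranged from 2.46 in Akt cells without LIF to 3.19. In cultures of mixed states, fewer cells of a kind and less RNA per cell cannot be told apart.

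Among the 7 synthesis genes the lowest array was the same for each. Akt cells with LIF gave the lowest value of 7 of 7, as they did for 25.5% of the 5027 genes that passed the floor on every array. When arrays were scaled to the hybridization controls the count was 5 of 7. The highest value lay in control cells without LIF for 4 genes and in Akt cells without LIF for 3, the arrays that were highest for 29.8% and 19.7% of those genes. Akt cells with LIF was also the array with the highest actin 3' to 5' ratio. Its Gapdh ratio was 3.05, beside 3.03 and 3.19 in control cells with and without LIF. The part of RNA quality in these values was not tested.

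**Figure D1:**
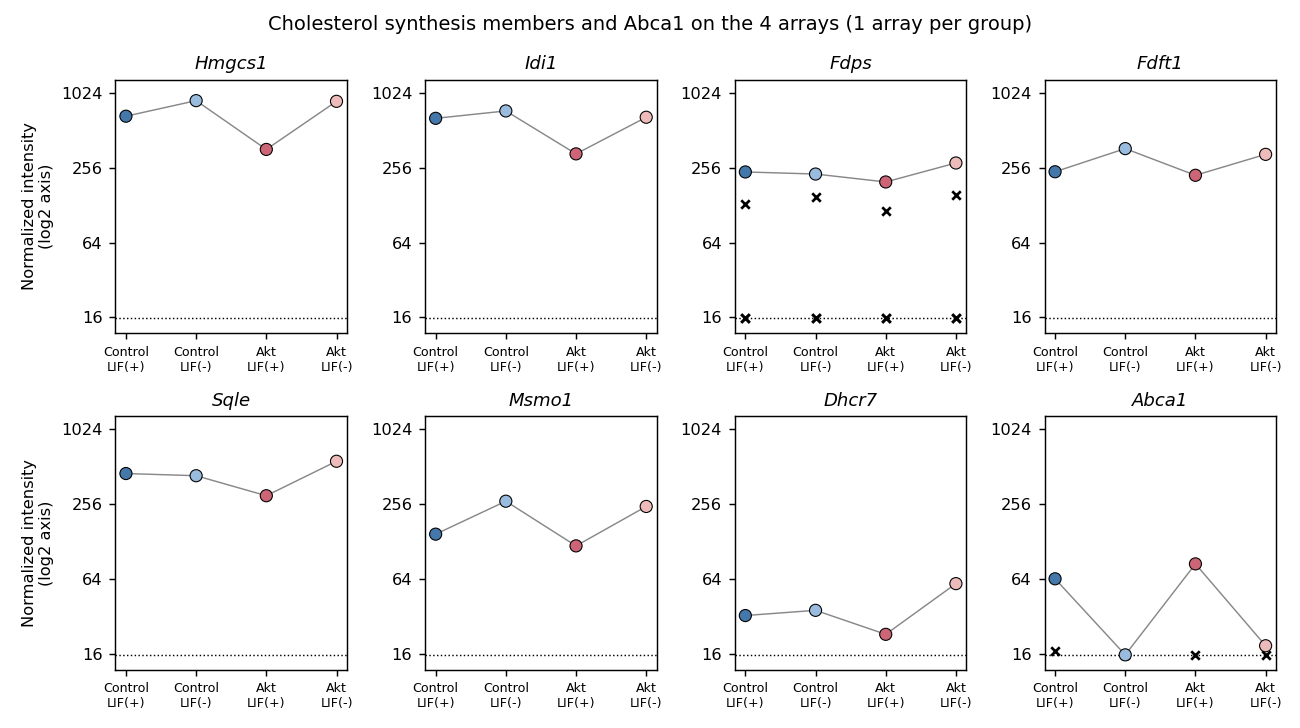
Normalized intensity (log2 axis) of each member on the 4 arrays, 1 panel a gene. Filled circles joined by a line are the probe set that stands for the gene, crosses the other probe sets of Fdps and Abca1, and the dotted line is the floor of 15.8. The 7 synthesis genes have their lowest value in Akt cells with LIF, where Abca1 has its highest value of 85.0. For Fdps, Fdft1 and Msmo1 the gap to the next array is within 1 SD between probe sets of the same gene.

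Hmgcs1 encodes the cytosolic HMG-CoA synthase at the entry to the mevalonate pathway. Its intensity was 662.1 and 883.0 in control cells with and without LIF, and 358.2 and 871.9 in Akt cells. Akt cells with LIF stood lowest, 0.89 in log2 below control cells with LIF, and both cultures without LIF were highest, 0.02 apart. After LIF withdrawal Hmgcs1 was 1.33-fold higher in control cells and 2.43-fold higher in Akt cells.

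Idi1 encodes the isomerase that makes dimethylallyl diphosphate. It measured 636.7 and 729.9 in control cells with and without LIF, and 329.9 and 649.5 in Akt cells. Its 3 higher arrays lay within 0.20 of each other in log2, and Akt cells with LIF lay 0.95 below control cells with LIF.

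Fdps encodes farnesyl diphosphate synthase, whose product feeds sterols and protein prenylation alike. Its intensities were 236.1 and 227.2 in control cells with and without LIF and 196.2 and 278.7 in Akt cells. That probe set carries the suffix f, which Affymetrix gave to sets shared by a gene family. A second probe set read 129.5, 148.1, 113.9 and 154.4 in the same order, again lowest in Akt cells with LIF. The remaining 2 probe sets of Fdps were below the floor on every array. Fdps varied least of the 7, and none of the gaps between its neighbouring arrays exceeded the spread described next.

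For comparisons of single arrays, the only error at hand was the disagreement between probe sets of the same gene. Its SD, over the 803 to 847 genes with several probe sets above the floor on both arrays, was 0.411 for control cells and 0.351 for Akt cells after LIF withdrawal. For Akt against control it was 0.359 with LIF and 0.411 without. It says nothing of how separate cultures would differ. When the arrays of each synthesis gene were put in order, 8 of 21 gaps between neighbours exceeded this SD. The share of such gaps over all genes was not counted. Neither was the share of all genes past this SD in each comparison, so the genes said below to exceed it lack that background.

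Fdft1 encodes squalene synthase, the committed step toward sterols. It read 237.0 and 363.6 in control cells with and without LIF, and 222.0 and 327.0 in Akt cells. Here the arrays paired by LIF rather than by line: the higher values were both without LIF, and the lines differed by 0.15 or less in log2 in either medium.

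Sqle encodes squalene epoxidase, a rate-controlling oxygenase of the pathway. Its values were 452.1 with LIF and 434.2 without LIF in control cells, against 299.9 and 567.3 in Akt cells. Control cells were nearly level, with a log2 difference of -0.06, while Akt cells spanned 0.92 from the lowest to the highest array of the gene.

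Msmo1 encodes the sterol methyl oxidase that strips methyl groups from lanosterol products. It measured 147.3 with LIF and 271.0 without LIF in control cells, and 118.6 and 245.9 in Akt cells. Like Fdft1 it was higher without LIF in both lines, by 1.84-fold in control and 2.07-fold in Akt cells.

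Dhcr7 encodes the reductase that completes cholesterol from its last precursor. Its intensities of 32.7 and 36.0 in control cells, with and without LIF, were close to each other. In Akt cells it went from 23.1 to 59.0 without LIF, the largest response of the 8 members in the upward direction, at 2.56-fold. Its values lay nearest to the floor among the synthesis genes.

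Side by side, LIF withdrawal in Akt cells was the comparison in which the 7 genes were all higher. Their log2 differences ran from 0.51 to 1.36 with a median of 0.98, and 7 of 7 were above 0, as were 51% of all 5945 genes tested, whose median was 0.01. Of the 7, 3 were at least 2-fold higher (Hmgcs1, Msmo1 and Dhcr7), against 3.01% of all genes. Idi1, at 1.97-fold, and Sqle, at 1.89-fold, lay just under that line. Since the members were chosen with earlier results of these data known, these counts are not a test. When arrays were scaled to the hybridization controls, the median of all genes in this comparison shifted to -0.16 and the median of the 7 was 0.77, or 0.93 above it. Of the genes 2-fold different, 45.2% were higher, and 24.7% under that scaling. Dhcr7, the gene nearest to the floor, had a log2 difference of 0.30 here when the floor was set at the 60th percentile.

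In control cells the same withdrawal gave a median of 0.20, with a range of -0.06 to 0.88. None of the 7 was 2-fold different, where 7.39% of 5984 genes passed 2-fold upward and 6.4% downward. Of the 7, 5 were above 0, beside 48.1% of all genes. Only Msmo1 at 0.88, Fdft1 at 0.62 and Hmgcs1 at 0.42 exceeded the probe set SD. With values as deposited the median of all genes was -0.26 in this comparison and that of the 7 was -0.01, and Idi1, Dhcr7 and Fdps, all near 0, changed sign under some of the alternatives. Among genes 2-fold different, 53.6% were higher, against 30.2% with values as deposited.

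Subtracting the response of control cells from that of Akt cells gave a median of 0.78 for the 7 genes and 0.04 for all 5671 genes with a value. It was above 0 for 6 of the 7, beside 51.9% of all genes, and at least 1 for Dhcr7 alone, at 1.22, beside 10.1% of genes. Sqle (0.98), Hmgcs1 (0.87), Idi1 (0.78) and Fdps (0.56) also exceeded the probe set SD of 0.499 for this quantity. Msmo1 (0.17) and Fdft1 (-0.06) did not. With the floor at the 60th percentile Dhcr7 was at 0.30, and with values as deposited Sqle (1.31), Hmgcs1 (1.15) and Idi1 (1.14) also passed 1. With 4 arrays this difference has no residual error and was not tested.

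**Figure D2:**
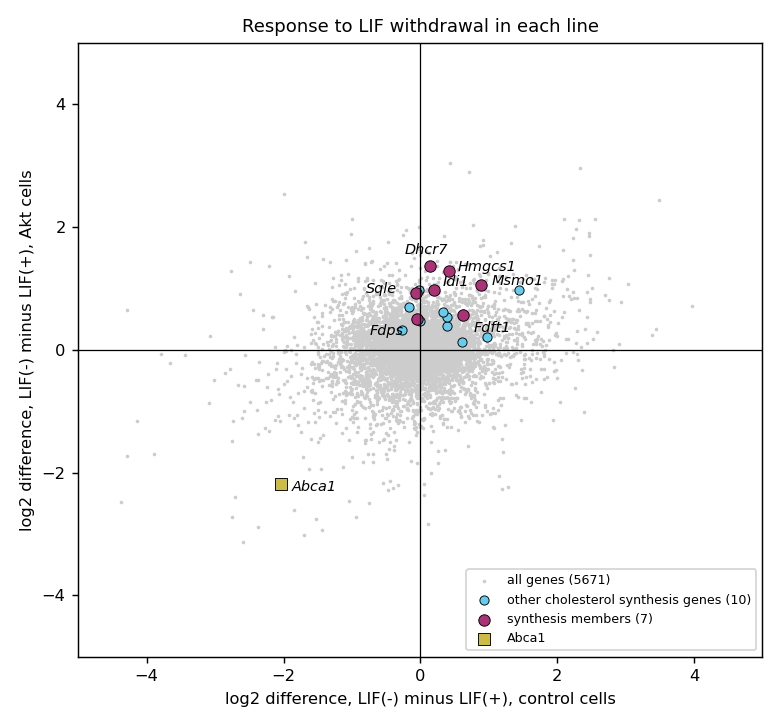
Each point is a gene placed by its log2 difference after LIF withdrawal in control cells (horizontal) and in Akt cells (vertical). Grey points are all 5671 genes with a value in both lines, coloured circles the 7 synthesis members and the 10 other measured cholesterol synthesis genes, and the square Abca1. All 17 synthesis genes lie above the horizontal zero line, and Abca1 lies at -2.03 and -2.18, where its horizontal value is a bound.

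Comparing the lines in LIF, the 7 genes were lower in Akt cells, with a median of -0.50 and a range of -0.95 to -0.09. None was 2-fold lower or higher, against 3.64% and 3.5% of 5938 genes, and 7 of 7 were below 0 as were 49.2% of all genes. Fdft1 turned to 0.01 when arrays were scaled to the hybridization controls. Idi1 (-0.95), Hmgcs1 (-0.89), Sqle (-0.59) and Dhcr7 (-0.50) exceeded the probe set SD, and Msmo1, Fdps and Fdft1 did not. This comparison uses the same array of Akt cells with LIF as the withdrawal in Akt cells, so the low values on that array enter both. With values as deposited, all genes shifted to a median of -0.52 and the 7 to -1.03, which is -0.51 relative to all genes. Higher genes made up 49.1% of those 2-fold different, but 63.3% when scaled to the hybridization controls and 6.18% as deposited.

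Without LIF the median of the 7 was -0.02, with 3 above 0 and 4 below, where 55% of 6009 genes were above 0. None was 2-fold different, beside 5.87% of genes upward and 8.12% downward. Dhcr7, at 0.71 or 1.64-fold higher in Akt cells, was the only synthesis gene past the probe set SD. Higher genes made up 42% of those 2-fold different, and 18.8% as deposited.

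**Figure D3:**
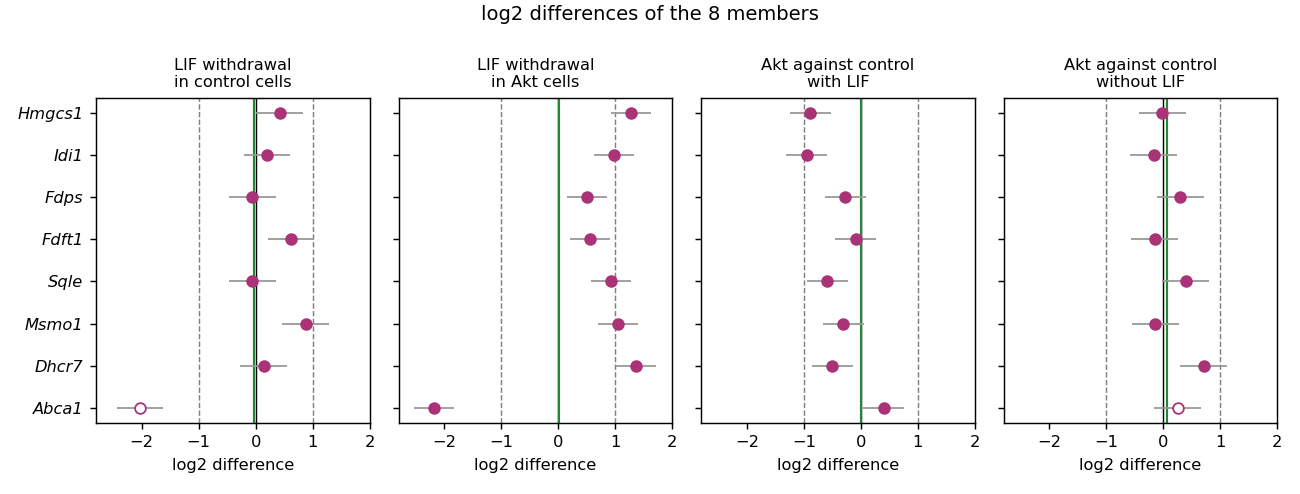
log2 difference of each member in the 4 comparisons, with bars of 1 SD between probe sets of the same gene. Open circles are bounds, dashed lines mark 2-fold, and the green line is the median of all genes. The synthesis genes lie to the right in Akt cells after LIF withdrawal, from 0.51 to 1.36, and Abca1 lies to the left in both lines.

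The other genes of the pathway were read from a list of 22, of which 17 were measured, 10 of them not members. All 10 had a log2 difference above 0 after LIF withdrawal in Akt cells, beside 51% of all genes. Their median was 0.50, and the 9 measured on both arrays were under 2-fold. Cyp51, the lanosterol demethylase, measured 45.8 and 45.2 in control cells with and without LIF and 27.1 and 53.0 in Akt cells. Lss, lanosterol synthase, followed a like course at 106.1, 94.8, 60.9 and 98.5. Both were nearly level in control cells and lowest in Akt cells with LIF. Over the 17 genes, 16 had their lowest value in Akt cells with LIF, beside 25.5% of genes above the floor on every array. When scaled to the hybridization controls, 12 of the 17 did.

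In control cells, 6 of the 10 were above 0, beside 48.1% of all genes, and the median was 0.36. Hsd17b7, a ketosteroid reductase of the pathway, was the only 1 past 2-fold: it read 18.9 with and 51.4 without LIF, 2.71-fold higher. In Akt cells it was at the floor with LIF and at 31.0 without LIF, at least 1.96-fold higher. Sc5d, the sterol desaturase, went from 33.7 to 66.3 in control cells and from 35.4 to 40.7 in Akt cells. Its lowest array was control cells with LIF, the exception among the 17 genes. Comparing the lines in LIF, all but 1 of the 10 were below 0, beside 49.2% of all genes, and their median was -0.27. Without LIF the median was 0.04. For the 10, the response of Akt cells minus that of control cells took both signs. It was 0.99 for Cyp51, 0.86 for Lss, 0.60 for Mvd, 0.47 for Mvk, 0.29 for Ebp and 0.15 for Nsdhl. The same difference was -0.78 for Sc5d, -0.49 for Tm7sf2, -0.00 for Lbr and, as a bound, at least -0.47 for Hsd17b7. Over all genes 51.9% were above 0.

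**Figure D4:**
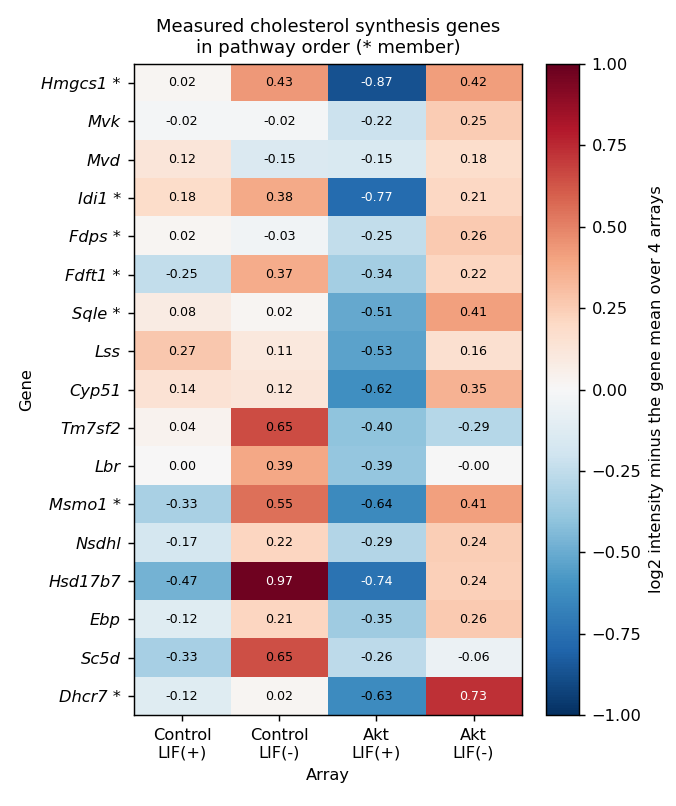
log2 intensity of the 17 measured cholesterol synthesis genes in pathway order, each centred on its own mean over the 4 arrays, with members starred. The column of Akt cells with LIF holds the lowest value of 16 genes, and the highest values lie on the 2 arrays without LIF for 8 genes each and in control cells with LIF for 1, Lss.

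Of 10 SREBP regulators listed, 4 were measured and 3 were above the floor, none 2-fold different in any of the 4 comparisons. Srebf1, which encodes SREBP-1, read 186.8, 183.5, 213.3 and 220.1 in control cells with and without LIF and Akt cells with and without LIF. Insig1, the sterol-sensing retention protein and itself an SREBP target, was at the floor on all 4 arrays. In the side branch that makes and uses longer isoprenoids, 5 of 10 listed genes were measured, and none was 2-fold different. Their medians, -0.62 in control and -0.49 in Akt cells after LIF withdrawal, had the opposite sign to those of the synthesis genes.

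Fatty acid synthesis genes are also under SREBP control. Of 10 measured, 7 were above 0 after LIF withdrawal in Akt cells, beside 51% of all genes. Their median was 0.14, and none was past 2-fold. Acly, the citrate lyase that supplies acetyl-CoA, went from 1010.9 to 499.4 in control cells, 2.02-fold lower, and from 541.8 to 391.6 in Akt cells. Scd1, the stearoyl-CoA desaturase, was higher in Akt cells in both media: 116.8 and 139.0 in control cells with and without LIF, and 235.6 and 289.7 in Akt cells, 2.02-fold and 2.08-fold higher. A second Scd1 probe set gave smaller differences of 0.51 and 0.77, and its remaining probe set was at the floor. Mid1ip1, a partner of acetyl-CoA carboxylase, went from 157.9 to 83.8 in control cells and from 72.6 to 115.7 in Akt cells, and with LIF it was 2.17-fold lower in Akt cells. Its other probe set was at or near the floor.

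Abca1 was low without LIF in both lines. Its better detected probe set read 64.5 in control cells with LIF and 7.3, below the floor of 15.8, once LIF was withdrawn. In Akt cells it read 85.0 with LIF and 18.7 without. Both arrays with LIF were high and both without LIF were at or near the floor. Without LIF it was at least 4.09-fold lower in control cells and 4.54-fold lower in Akt cells, where 6.4% and 3.65% of genes were at least 2-fold lower. The second Abca1 probe set was above the floor only in control cells with LIF, at 16.9, and could not show these differences. Averaging the probe sets therefore gave -1.07 and -1.09 in log2. With a floor at the 60th percentile, which sets both values without LIF to the floor, they were -0.43 and -0.83.

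Between the lines, Abca1 was 0.40 higher in Akt cells with LIF, past the probe set SD of 0.359, and turned to -0.15 with values as deposited. Without LIF it was at least 1.19-fold higher in Akt cells. The summed stem cell marker level was also lower without LIF in both lines. Utf1 of the stem cell list went the other way in Akt cells, at 463.9 with and 722.9 without LIF. Krt8 and Krt18 of the trophoblast list were higher in control cells without LIF, at 767.9 and 627.0 against 156.4 and 131.9 with LIF. All 7 trophoblast markers were above the floor in control cells without LIF and 4 or 5 on the other arrays. Their summed intensities were 1823 against 606 to 727, and Krt8 and Krt18 made up most of the 1823. Cdx2 was just above the floor there, at 17.9. Tfap2c alone of the list was lower there, at 225.7 against 335.1 in control cells with LIF. Of 9 fibroblast markers 6 were above the floor in control cells without LIF, summing to 556, and 3 or 4 elsewhere, summing to 221 to 251, and Postn, Fap and Pdgfrb were at it on all 4 arrays. Of 8 measured endoderm markers, 2 to 6 were above the floor, summing to 59.2 in control cells with LIF and to 312 to 495 elsewhere, and Ttr and Foxa2 were at it on all arrays. Of 6 macrophage markers, Cd68 and Csf1r were above the floor on every array. Their summed level was 73.1 and 70.5 in control cells with and without LIF, and 162 and 88.8 in Akt cells. It was highest in Akt cells with LIF, as Abca1 was, but nearly level in control cells, where Abca1 was lower without LIF. Ptprc, Adgre1, Lyz2 and Itgam were at the floor on all 4 arrays. The part of these cell types in the Abca1 or synthesis gene values was not tested.

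Of 15 efflux and LXR genes listed, 9 were measured and 8 were above the floor after LIF withdrawal in either line. Abcg1, a second cholesterol transporter and LXR target, read 75.8 and 63.9 in control cells with and without LIF and 92.1 and 70.0 in Akt cells, lower without LIF by 0.25 and 0.40 in log2 but within 1.32-fold. Apoe, the lipoprotein that takes up exported cholesterol, went from 452.8 to 735.5 in control cells and from 1436.1 to 483.8 in Akt cells, 2.97-fold lower. With LIF it was 3.17-fold higher in Akt than in control cells, and its second probe set was at the floor. Nr1h3, which encodes LXR alpha, was at the floor on all 4 arrays. Without Abca1, the median of the efflux list was 0.01 in control and -0.09 in Akt cells.

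Of 8 uptake and transport genes above the floor, 8 had a log2 difference above 0 after LIF withdrawal in control cells, beside 48.1% of all genes. Their median was 0.34, and the lowest was 0.01 for Scarb1. In Akt cells 4 of the 8 were above 0, beside 51% of all genes, with a median of -0.11. Lrp1, an endocytic receptor for Apoe, measured 48.6 and 104.7 in control cells, 2.16-fold higher without LIF, and 79.5 and 61.2 in Akt cells. Lipa, the lysosomal lipase that frees cholesterol from its esters, was 24.8 and 42.4 in control cells with and without LIF, at the floor in Akt cells with LIF and at 18.2 without LIF. It was 2.33-fold lower in Akt than in control cells without LIF. Of 8 storage and oxysterol genes listed, 3 were measured, and 1 of them was at the floor on all 4 arrays.

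What both lines share was tested with limma over 6258 genes, in an additive model of line and LIF. The Abca1 difference was -2.11 ± 0.321 (SE) in log2, lower without LIF in 2 of 2 lines, with an adjusted p of 0.0338, beside 0.304% of genes past 0.05 in that test. One of its 4 values is the floor, so the fitted size and the error both depend on it. Abca1 was also chosen with earlier results of these data known. The call was lost under 7 of 8 alternative settings, with limma adjusted p from 0.0803 to 0.683, and kept under the other at 0.0347. The fitted difference was between -2.06 and -2.67 in 5 of those 7, -1.08 with the mean of probe sets and -0.63 with the floor at the 60th percentile. None of the 7 synthesis genes passed. Msmo1 had the largest shared difference among them (0.97 ± 0.322 SE, limma adjusted p = 0.368), followed by Hmgcs1 (0.85 ± 0.349 SE, limma adjusted p = 0.483) and Dhcr7 (0.75 ± 0.375 SE, limma adjusted p = 0.614). For Akt against control over both media no member passed, with limma adjusted p from 0.771 for Idi1 to 0.997 for Fdps, beside 0.623% of genes called. These p-values measure only the spread between these 4 arrays. The error in the model is the difference of the LIF responses between the lines, moderated over genes. Responses that are unlike in the lines therefore count as error in it.

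The genes whose course over the 4 arrays came nearest to the mean of the 7 were found among 5020 others above the floor on all arrays. Likeness was the root mean square distance between log2 profiles centred on their own mean. Nearest were Mrpl41, a mitochondrial ribosomal protein gene (0.0233), Ncdn (0.0329), Efna2 (0.0583), the heat shock gene Hspa1b (0.0709) and Ppl (0.0777). Mrpl41 read 64.5, 77.2, 44.2 and 83.5 in the order control with and without LIF, Akt with and without LIF. None of the 5 was in the pathway lists. For Abca1 the nearest were the pluripotency genes Klf4 (0.255) and Tfcp2l1 (0.327), then Ulk1 (0.36), Ctsa (0.374) and Hmces (0.385). Klf4 measured 568.2 and 86.4 in control cells with and without LIF and 619.6 and 117.0 in Akt cells. The Abca1 profile holds a value at the floor, so its distances and ranks depend on where the floor is set. These are descriptions over 4 arrays.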

How the data were processed

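Total RNA of 4 groups with 1 array each was measured, and the table of values covering all 4 arrays was used. The authors deposited 1 linear intensity per probe set and array. The sources used here do not give the software or scaling behind them. Their 2% trimmed means ran from 80.3 to 121, 1.51-fold apart, so the 12422 probe sets other than the 66 array controls were brought to 1 distribution by limma's quantile normalization (limma 3.58.1, R 4.3.3; tables with Python 3.11.15), floored at the 40th percentile (15.8) and put on the log2 scale. The platform annotation gave 10833 probe sets 1 symbol, 396 several and 1193 none, and symbols were updated through RefSeq gene identifiers. Each gene was represented by its brightest probe set on average.

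A comparison of single arrays allows no test, so 2-fold (a log2 difference of 1) was the size counted. A gene entered a comparison when either of its arrays passed the floor. The limma model (lmFit and eBayes, two-sided, Benjamini-Hochberg) left 1 residual degree of freedom and added 8.69 prior degrees of freedom. It was tested on simulated data.

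Named genes were the 8 members, list genes at least 2-fold different in any comparison, a few fixed regulators where measured, and the 5 nearest profiles for each pattern. Cyp51, Lss, Sc5d, Scarb1, Mvd, Mvk, Ebp, Nsdhl, Tm7sf2 and Lbr were named after their values were seen. The members and lists were chosen with earlier results of these data known. The 8 alternatives changed the scaling, the floor, the probe set rule or the filter. Precision is limited by having 4 arrays.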

Additional observations from a re-analysis of the deposited data

Results flagged for a closer look

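Among the genes named here, Mvd aside, 2 members and 5 list genes had log2 differences of opposite sign in the lines after LIF withdrawal. Their responses were further apart than the probe set SD of 0.499. List genes not named here were not screened for this. The difference was not tested, since each line has 1 array per medium. Sqle had -0.06 in control and 0.92 in Akt cells, a difference of 0.98. Fdps had -0.06 and 0.51, a difference of 0.56, and its second probe set gave 0.19 and 0.44. Cyp51 had -0.02 and 0.97, a difference of 0.99, and Lss had -0.16 and 0.69, a difference of 0.86. For these 4 genes the value in control cells was within the probe set SD of 0.411, so its sign was not resolved. Apoe had 0.70 and -1.57, a difference of -2.27, the largest of the 7 in size. Lrp1 had 1.11 and -0.38, a difference of -1.48. Mid1ip1 had -0.91 and 0.67, a difference of 1.59. Mvd, named after the screen, had -0.27 and 0.33, a difference of 0.60. Its value in control cells was also within the probe set SD of 0.411.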

How the results depend on the processing

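No paired analysis was possible because the labels give no replicate numbers that could pair cultures, although the limma model held the line as a term and so compared LIF within lines. With 1 array a group, no replicate could be left out. The medians of the 7 synthesis genes stayed within the probe set SD of the reported value under the 7 settings tried, except that the median for Akt against control with LIF was -1.03 with values as deposited. Under that setting 4 members were at least 2-fold lower in that comparison, and Abca1 was at -0.15 there. A floor at the 20th percentile put Abca1 at -3.15 after withdrawal in control cells, at 1.36 for Akt against control without LIF (1 member then 2-fold higher) and at 0.97 for the difference of responses. A floor at the 60th percentile put its withdrawal values at -0.43 and -0.83, leaving 0 members 2-fold lower in either line, and the mean of its probe sets gave -1.07 and -1.09. Apart from the floor and the averaging themselves, the cause was not tested.

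The limma calls were not stable. For LIF withdrawal over both lines, 19 genes became 0 under 7 of 8 alternatives and 18 with plain probe sets preferred, while 333 to 632 had an unadjusted p under 0.05, beside 583 as reported. For Akt against control over both media, limma called 39 genes as reported, 17 with the floor at the 20th percentile, 11 with the trimmed mean, 3 with values as deposited and 3 with the mean of probe sets. It called 0 with the hybridization controls, with the floor at the 60th percentile and with no filter, where 333 to 775 had an unadjusted p under 0.05 over all alternatives, beside 603 as reported. The counts of all genes at least 2-fold different also moved. These counts, and those of synthesis genes lowest in Akt cells with LIF, were recomputed as alternatives added after seeing the data. With the floor at the 20th percentile, higher and lower genes numbered 720 and 650 after LIF withdrawal in control cells (442 and 383 as reported) and 480 and 490 in Akt cells (179 and 217). For Akt against control they numbered 477 and 526 with LIF (208 and 216) and 662 and 778 without LIF (353 and 488). With the floor at the 60th percentile they were 297 and 221, 69 and 123, 109 and 105, and 189 and 312 in the same order. Values as deposited gave 335 and 776 for withdrawal in control cells, 66 and 1002 for the lines with LIF and 168 and 728 without LIF, and the hybridization controls gave 112 and 342 for withdrawal in Akt cells. Of the 17 measured cholesterol synthesis genes, 14 to 17 were above 0 after LIF withdrawal in Akt cells under these settings (17 as reported), and 12 to 17 were lowest in Akt cells with LIF (16 as reported).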
